A study of Ovis aries with 22 samples.

Results

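Myocardin (MYOCD), serum response factor (SRF) and Krüppel-like factor 4 (KLF4) are 3 of the 26200 gene symbols in the count tables, chosen by name for their part in the transcriptional control of the smooth muscle contractile state. RNA was sequenced from sheep (Ovis aries) in a model of the Ross procedure, an operation that moves the pulmonary root into the aortic position, where it is called the pulmonary autograft. The autograft group was sinus tissue from 3 operated sheep, taken 6 months after surgery. The aortic sinus and pulmonary sinus groups were native tissue, 4 libraries each, from animals D3 to D6, which gave both tissues. The design text places native tissue in sheep that were not operated, but aortic replicate 1, from animal D3, carries the treatment label Ross surgery. No group was operated without the pulmonary root being moved, and each operated sheep gave autograft tissue only, so surgery, position and animal cannot be told apart.

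Each of the 11 libraries was sequenced in 2 runs, summed here to 17380599 to 20741334 counts. A pair of libraries was picked as standing apart from their groups, each by a different gene list. Autograft replicate 1 had a mean of 3.28 log2 CPM over 11 endothelial genes, where autograft replicates 2 and 3 had 6.68 and 5.72. Pulmonary replicate 1 had a mean of 4.37 log2 CPM over 6 adipocyte genes, where pulmonary replicates 2 to 4 had 0.88 to 1.74. Such departures were not limited to this pair. Aortic replicate 3 had an adipocyte mean of 1.69, where aortic replicates 1, 2 and 4 had 3.97, 5.36 and 4.08. Autograft replicate 3 had a macrophage mean of 3.93, where autograft replicates 1 and 2 had 6.29 and 5.94.

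Smooth muscle cells of the arterial wall can hold or lose a contractile phenotype, and these 3 proteins act on that choice. SRF is a DNA-binding factor of the MADS-box family that sits at CArG boxes in the promoters of smooth muscle contractile genes and of growth-response genes. Myocardin does not bind DNA itself; it is a coactivator that joins SRF and turns on the contractile genes, and it is made in smooth and cardiac muscle. KLF4 is a zinc-finger factor that, in mouse and rat smooth muscle, represses contractile genes and lowers myocardin; it is also made by endothelium, macrophages and fibroblasts.

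In the autograft, mean MYOCD was 0.27 times its level in pulmonary sinus and 0.26 times its level in aortic sinus. SRF lay below every native library by a small margin, and KLF4 had a higher mean with overlapping libraries. Of the 3 genes only MYOCD was called, at an adjusted p under 0.05 in edgeR's quasi-likelihood test. Of all 14979 genes tested, 11.3% were called between autograft and pulmonary sinus and 2.38% between autograft and aortic sinus. These comparisons share the 3 autograft libraries and are not independent of each other.

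MYOCD, the coactivator, had 96.9, 72.3 and 55.4 CPM (the count relative to library size, scaled by TMM factors) in autograft replicates 1 to 3. Its level was 298, 339, 261 and 256 CPM in aortic replicates 1 to 4, and 357, 318, 215 and 220 CPM in pulmonary replicates 1 to 4. The highest autograft library was thus below all 8 native libraries, the lowest of which had 2.22 times as much MYOCD. Of all genes tested, 11.2% had all autograft libraries below those of pulmonary sinus and 10.8% below those of aortic sinus. The MYOCD levels rest on 975 to 1723 reads per autograft library and 3856 to 6770 reads per native library.

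The autograft mean was 74.9 ± 20.9 CPM (SD, n = 3), against 288 ± 38.4 CPM in aortic sinus and 278 ± 71.0 CPM in pulmonary sinus (SD, n = 4 each). Against pulmonary sinus MYOCD fell by 1.89 on the log2 scale (SE 0.24, adjusted p = 0.0042, edgeR), and against aortic sinus by 1.94 (SE 0.24, adjusted p = 0.00653). Ranked by p, it was gene 21 of 14979 in the comparison with pulmonary sinus and gene 11 in that with aortic sinus. Both calls held in all 27 alternative settings, with log2 fold changes between -2.13 and -1.51 against pulmonary sinus and between -2.18 and -1.54 against aortic sinus. In bulk tissue, fewer cells of a type and less RNA per cell cannot be told apart, here and in every level below.

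SRF, the DNA-binding partner, had 28.2, 52.5 and 54.2 CPM in autograft replicates 1 to 3. It had 72.6, 66.7, 90.1 and 59 CPM in aortic replicates 1 to 4, and 60.4, 105, 97.5 and 66 CPM in pulmonary replicates 1 to 4. No autograft library reached a native one, but the gap was narrow, since the lowest native library had 1.09 times the level of the highest autograft library. Genes whose autograft libraries all lay below the others made up 11.2% of those tested against pulmonary sinus and 10.8% against aortic sinus.

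The SRF mean was 45.0 ± 14.5 CPM in the autograft (SD, n = 3), against 72.1 ± 13.2 CPM in aortic and 82.1 ± 22.2 CPM in pulmonary sinus (SD, n = 4 each). The log2 fold change was -0.87 ± 0.26 (SE) against pulmonary sinus, with an adjusted p of 0.0558, and -0.68 ± 0.26 against aortic sinus, with an adjusted p of 0.161, neither of them called by edgeR. The first value sits at the threshold: without pulmonary replicate 1, the pulmonary library with the least SRF, it was -1.01 and called (adjusted p = 0.0277), and without both libraries that stand apart it was -0.77 (adjusted p = 0.0498). Over all 27 alternatives the adjusted p ranged up to 0.139, and 5 of them called SRF lower. The autograft library with the least SRF, replicate 1, was also lowest in the contractile genes described below.

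KLF4, the repressor, had 41.9, 48.8 and 28.5 CPM in autograft replicates 1 to 3. Aortic replicates 1 to 4 had 31.6, 39.3, 19 and 18.6 CPM, and pulmonary replicates 1 to 4 had 29.5, 9.13, 12.1 and 18.6 CPM. Autograft replicates 1 and 2 were above all 8 native libraries, whereas autograft replicate 3 lay below 2 aortic libraries and 1 pulmonary library.

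The KLF4 mean was 39.7 ± 10.4 CPM in the autograft (SD, n = 3), against 27.1 ± 10.1 CPM in aortic and 17.3 ± 9.01 CPM in pulmonary sinus (SD, n = 4 each). The log2 fold change was 1.20 ± 0.39 (SE) against pulmonary sinus (adjusted p = 0.0684, edgeR) and 0.55 ± 0.39 against aortic sinus (adjusted p = 0.422), so that neither was called. Without pulmonary replicate 1, the pulmonary library with the most KLF4, the first value was 1.56 and called (adjusted p = 0.0166). DESeq2, limma-voom, the fit without animal D3 and that without both libraries that stand apart also called it, with log2 fold changes of 1.20, 1.31, 1.58 and 1.52. With the animal as a random block in limma-voom the value was 1.31 at an adjusted p of 0.04999, so that 6 of 27 alternatives called KLF4.

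**Figure D1:**
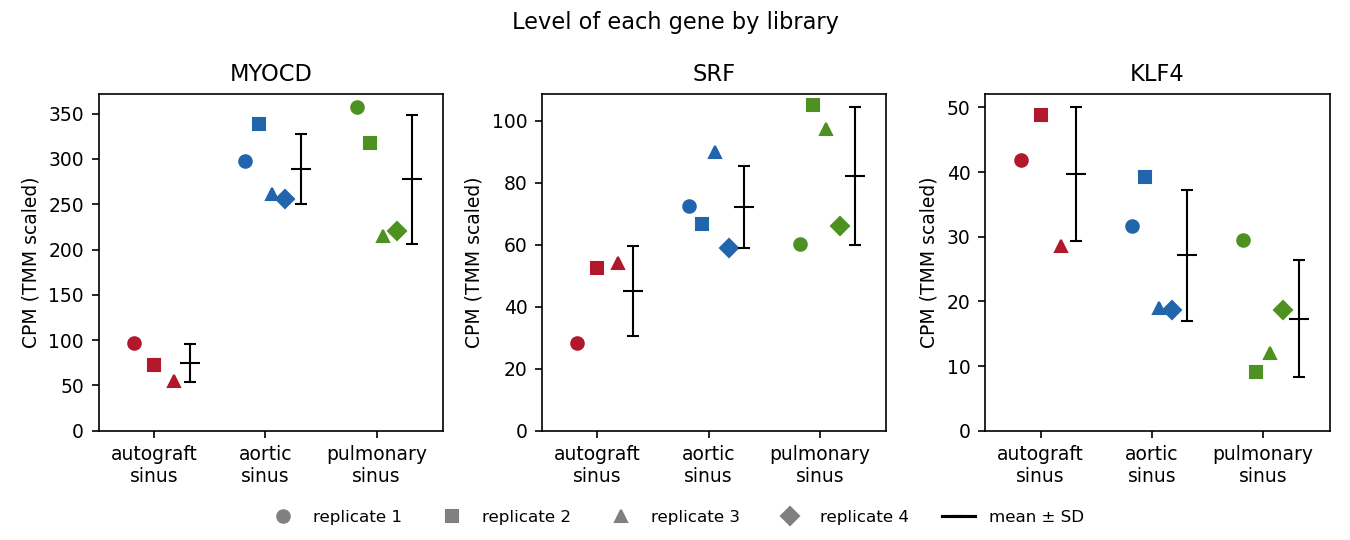
Level of MYOCD, SRF and KLF4 in each of the 11 libraries, in TMM-scaled CPM on a linear axis that starts at 0. Symbols give the replicate number, and bars the mean ± SD of each group; the 3 autograft points lie between 55.4 and 96.9 CPM for MYOCD, below all native points, and overlap the native points for KLF4.

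Between the native tissues none of the 3 genes was called, nor was any of the 14979 genes tested with edgeR; 306 genes, or 2.04%, had an unadjusted p under 0.05, and none of 28 alternative settings, DESeq2 and limma-voom among them, called a gene. The aortic over pulmonary log2 fold change was 0.05 ± 0.21 (SE) for MYOCD, -0.19 ± 0.24 for SRF and 0.65 ± 0.36 for KLF4, each with an adjusted p of 1 in edgeR. This contrast is also the test of whether the autograft's difference from pulmonary sinus departs from its difference from aortic sinus.

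Both tissues came from the same animals by their labels, which allows values within an animal. Over all genes, however, deviations from the group means correlated at -0.18 (D3) and -0.135 (D4) between the labelled pairs. Crossed, aortic D4 with pulmonary D3 gave 0.396 and aortic D3 with pulmonary D4 gave 0.261. The values within D3 and D4 therefore rest on the labels alone. MYOCD was 0.835, 1.06, 1.21 and 1.16 times as high in aortic as in pulmonary sinus of D3, D4, D5 and D6. In both tissues D3 and D4 had more MYOCD than D5 and D6. KLF4 was 1.07, 4.3, 1.57 and 0.997 times as high in aortic as in pulmonary sinus of D3 to D6, the widest gap being that of D4, with 39.3 CPM in aortic and 9.13 CPM in pulmonary sinus. SRF was 1.2, 0.637, 0.924 and 0.895 times as high. With the animal as a fixed block the aortic over pulmonary log2 fold change of MYOCD was 0.08 ± 0.12 (SE).

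Ratios of 2 genes within a library do not depend on library scaling. For every read of MYOCD there were 0.432, 0.676 and 0.514 reads of KLF4 in autograft replicates 1 to 3. The ratio was 0.106, 0.116, 0.0728 and 0.0727 in aortic replicates 1 to 4 and 0.0827, 0.0287, 0.0565 and 0.0845 in pulmonary replicates 1 to 4. All 3 autograft libraries lay above all 8 native libraries, with a wider gap than either gene showed alone.

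The mean log2 ratio of KLF4 to MYOCD was 3.20 higher in autograft than in pulmonary sinus and 2.56 higher than in aortic sinus. Each gave p = 0.0286 in the exact two-sided permutation test over libraries, the smallest p that 3 libraries against 4 allow, and 0.0857 adjusted over the 6 ratio tests (permutation), so that neither passed at 0.05 after adjustment. An adjusted p under 0.05 would have needed more of the 6 tests to reach that smallest p. The miss therefore does not show that the ratio was unchanged. Aortic and pulmonary sinus differed by 0.63 in this ratio (exact permutation p = 0.171, without use of the pairing by animal), and by 0.29 without pulmonary replicate 2. Without both libraries that stand apart, a setting added after the data were seen, the autograft differences were 3.51 and 2.71. The ratio of MYOCD to SRF was 3.43, 1.38 and 1.02 in autograft replicates 1 to 3, 2.89 to 5.08 in aortic sinus and 2.2 to 5.9 in pulmonary sinus. Autograft replicate 1, with the least SRF and the most MYOCD of its group, lay within the native range of this ratio, and autograft replicates 2 and 3 lay below all 8 native libraries. The mean log2 ratio was 1.25 lower in autograft than in aortic sinus (difference -1.25, exact permutation p = 0.0571, 0.114 adjusted) and 1.0 lower than in pulmonary sinus (difference -1.0, exact permutation p = 0.2, 0.24 adjusted). Without autograft replicate 1 the differences were -1.76 from aortic and -1.51 from pulmonary sinus, without autograft replicate 3 -0.89 and -0.64, and without both libraries that stand apart -1.76 and -1.25.

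**Figure D2:**
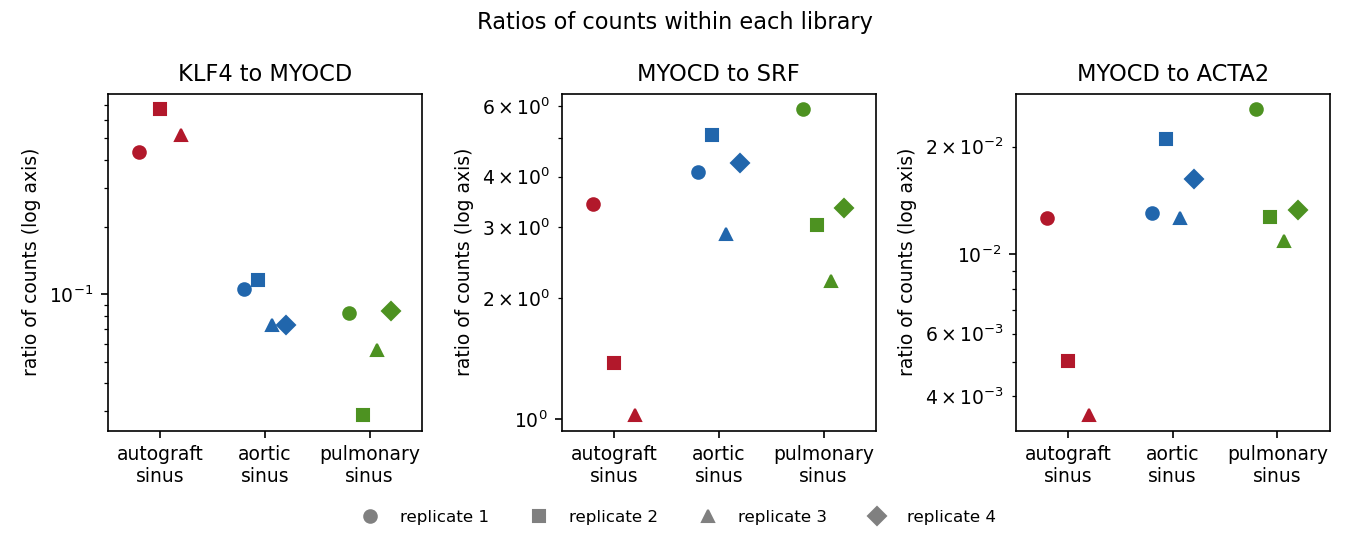
Ratio of read counts of KLF4 to MYOCD, MYOCD to SRF and MYOCD to ACTA2 in each library, on log axes, with symbols for the replicate number. KLF4 to MYOCD is 0.432 to 0.676 in the 3 autograft libraries, above all 8 native libraries, and in the other ratios autograft replicates 2 and 3 lie below every native library and autograft replicate 1 does not.

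Levels of different genes can be set side by side only per transcript length, in the authors' FPKM, which divides by gene length and library size. The deposited values also appear equalised between libraries, since ACTA2 has the same FPKM, 3728, in every library of the second run. In the second run the median FPKM of the autograft libraries was 54.7 for KLF4, 14.4 for SRF and 7.67 for MYOCD. In aortic sinus it was 29.5 for KLF4, 23 for MYOCD and 17.4 for SRF, and in pulmonary sinus 23.7 for MYOCD, 20.9 for SRF and 19.2 for KLF4. KLF4 exceeded SRF and MYOCD in all 3 autograft libraries in both runs. In aortic sinus KLF4 likewise exceeded MYOCD in all 4 libraries in both runs, and SRF in 4 of 4 in the second run and 3 of 4 in the first. In pulmonary sinus KLF4 exceeded MYOCD, and SRF, in 2 of 4 libraries in both runs, so these neighbours had no fixed order there. The order rests on the gene lengths the authors used, which their counts and FPKM imply to be 0.819 kb for KLF4, 3.8 kb for SRF and 11.7 kb for MYOCD. These lengths are medians over libraries and are themselves drawn from the equalised values.

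SRF has other partners. The myocardin-related factors MKL1 and MKL2 (MRTFA and MRTFB) carry actin signals to SRF, and the ETS-domain factors ELK1, ELK3 and ELK4 bind it at growth-response genes and compete with myocardin. None of these 5 was called by edgeR in either autograft comparison; 1, ELK3, had an unadjusted p under 0.05 in each, and DESeq2 and limma-voom (with or without the animal as a random block) called it against pulmonary sinus only. Their median log2 fold change was 0.16 against pulmonary sinus and 0.10 against aortic sinus, where the median of all genes was 0.0013 and 0.0018.

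MKL1 had 6.86, 10.3 and 5.22 CPM in the autograft, 7.97 to 9.87 CPM in aortic and 5.99 to 12.6 CPM in pulmonary sinus, a log2 fold change of -0.37 ± 0.29 (SE) against pulmonary and -0.23 ± 0.29 against aortic sinus. MKL2 had 34.5, 53.7 and 37.1 CPM in the autograft, 28 to 45.9 CPM in aortic and 36.4 to 39.1 CPM in pulmonary sinus (0.14 ± 0.19 and 0.30 ± 0.19). For every read of MKL2 there were 1.35 to 2.81 reads of MYOCD in the autograft, 7.38 to 10.6 in aortic sinus and 5.64 to 9.8 in pulmonary sinus. That ratio was chosen after its values were seen and was not tested. The direction of MKL2 against pulmonary sinus turned to -0.083 without autograft replicate 2, and that of MKL1 against aortic sinus to 0.025 in run 1 alone.

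ELK3, a factor that represses SRF targets unless it is phosphorylated, had 59.8, 89.4 and 50.3 CPM in the autograft, 33.3, 48.3, 40.9 and 40.5 CPM in aortic sinus and 56.9, 28.2, 28.9 and 29.7 CPM in pulmonary sinus. Only pulmonary replicate 1 reached into the autograft range. Its log2 fold change was 0.89 ± 0.27 (SE) against pulmonary sinus (adjusted p = 0.055, edgeR) and 0.71 ± 0.27 against aortic sinus (adjusted p = 0.154). Without pulmonary replicate 1 the first was 1.18 and called (adjusted p = 0.00682). ELK1 and ELK4 had log2 fold changes of 0.23 and 0.16 against pulmonary sinus.

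All 22 contractile genes tested, targets of myocardin and SRF, had negative log2 fold changes against pulmonary sinus, between -1.34 and -0.12. Of the 22, 9 fell against pulmonary sinus and none rose, with a median log2 fold change of -0.63, while 5.29% of all genes tested were called lower and 6.05% higher. Against aortic sinus 2 fell and none rose, with a median of -0.54, while 1.43% of all genes were called lower and 0.948% higher. The list was made with earlier results of these data known, and LMOD1 and HSPB7 were not analysed here.

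SYNPO2, which encodes the actin-bundling protein synaptopodin 2, had 565, 639 and 733 CPM in the autograft, 1019 to 1310 CPM in aortic and 1132 to 1515 CPM in pulmonary sinus. It fell by 1.04 on the log2 scale (SE 0.16) against pulmonary sinus and by 0.78 (SE 0.16) against aortic sinus. ITGA8, the integrin alpha 8 subunit, fell by 0.62 (SE 0.11) and 0.55 (SE 0.11). Both genes had autograft libraries below all native ones in each comparison, as had 11.2% of all genes tested against pulmonary sinus and 10.8% against aortic sinus. The calls against aortic sinus were lost in 13 of 27 alternatives for SYNPO2 and 16 of 27 for ITGA8.

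MYH11, the smooth muscle myosin heavy chain, had 5184, 6731 and 10329 CPM in the autograft, 12356 to 19781 CPM in aortic and 13999 to 22730 CPM in pulmonary sinus. It fell by 1.30 (SE 0.28, adjusted p = 0.0197, edgeR) against pulmonary sinus, and its value against aortic sinus was -1.02 ± 0.28 (adjusted p = 0.0782). JPH2, a junctophilin that couples the plasma membrane to the sarcoplasmic reticulum, fell by 1.34 (SE 0.29) against pulmonary sinus, and KCNMB1, a subunit of the calcium-activated potassium channel, by 0.69 (SE 0.15). SMTN, which encodes smoothelin, fell by 1.14 (SE 0.33, adjusted p = 0.0475), a call lost in 16 of 27 alternatives. The other genes called were FLNA, PDLIM7 and VCL.

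ACTA2, TAGLN, CNN1, MYLK and DES did not pass the test in either comparison. ACTA2, smooth muscle actin, had 7665, 14403 and 15660 CPM in the autograft, 15809 to 22842 CPM in aortic and 13957 to 25168 CPM in pulmonary sinus (log2 fold change -0.58 ± 0.29, SE, against each). TAGLN, CNN1, MYLK and DES had log2 fold changes of -0.50, -0.60, -0.62 and -0.25 against pulmonary sinus and of -0.37, -0.47, -0.21 and -0.12 against aortic sinus. In each of these 5 genes autograft replicate 1 was the lowest of the 11 libraries. Without it the values against aortic sinus were -0.32 for ACTA2, -0.10 for TAGLN and -0.14 for CNN1, and MYLK and DES turned to 0.074 and 0.14. Against pulmonary sinus they were then -0.34 for ACTA2, -0.24 for TAGLN, -0.29 for CNN1, -0.36 for MYLK and -0.002 for DES. In the authors' FPKM DES turned to 0.25 in both comparisons. A p that misses the threshold does not show that these genes were at the native level.

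The count of contractile genes that fell depended on single libraries. Against pulmonary sinus it was 2 without autograft replicate 2, pulmonary replicate 2 or pulmonary replicate 3, 5 without autograft replicate 1 and 8 without both libraries that stand apart, autograft replicate 1 and pulmonary replicate 1. With those 2 groups fitted alone it was 1, and in log2(FPKM + 1) of the first run 4. Against aortic sinus it was 8 in DESeq2, 0 without both libraries that stand apart, and 0 without autograft replicate 1, autograft replicate 2, any 1 of the 4 aortic libraries, or pulmonary replicate 3, 1 without pulmonary replicate 4 and 4 without pulmonary replicate 1. Summed over the 22 genes, the contractile level was 51136 to 91103 CPM in the autograft, 94681 to 132136 CPM in aortic and 100081 to 168335 CPM in pulmonary sinus, the lowest being autograft replicate 1.

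**Figure D3:**
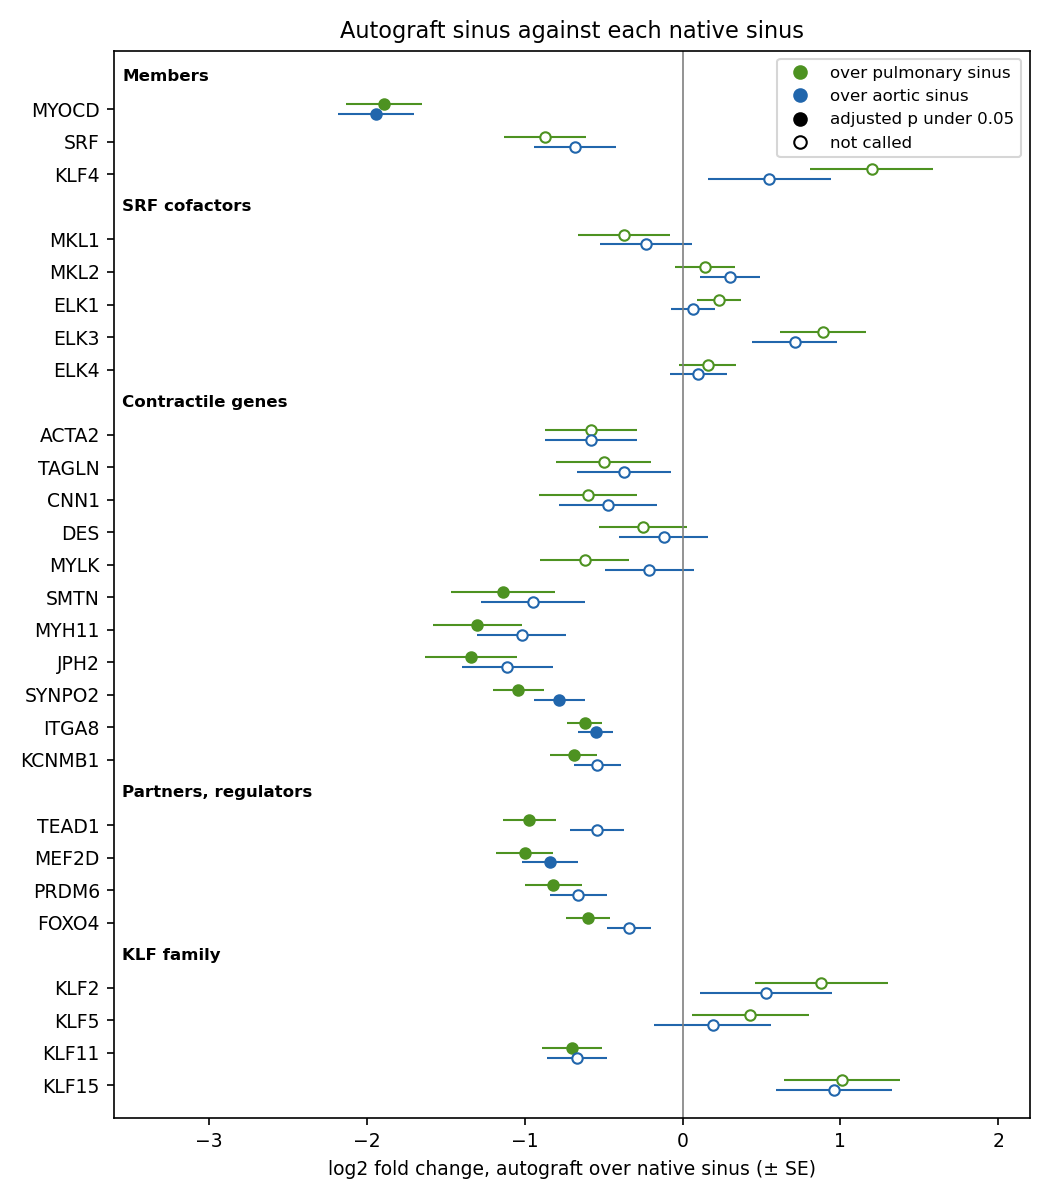
Log2 fold change ± SE of autograft over pulmonary sinus (green) and over aortic sinus (blue) for MYOCD, SRF, KLF4 and related genes, with filled points where edgeR's adjusted p was under 0.05. MYOCD lies near -1.9 in both comparisons, the contractile genes between -1.34 and -0.12, and the other SRF cofactors around 0 apart from ELK3.

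Of 31 partners and regulators of myocardin, a list made with earlier results known, 9 fell against pulmonary sinus and none rose (median log2 fold change -0.41), while 5.29% of all genes tested were called lower. The other 22 were not called, and 4 of them had values above 0. Against aortic sinus 2 fell and none rose (median -0.28), while 1.43% of all genes were called lower. TEAD1, a TEA-domain factor that binds contractile gene promoters, had 82.7, 72.4 and 80.7 CPM in the autograft, 95.8 to 145 CPM in aortic and 120 to 179 CPM in pulmonary sinus. It fell by 0.97 (SE 0.17, adjusted p = 0.012, edgeR) against pulmonary sinus. MEF2D, a MADS-box factor of muscle genes, had 23.3, 26.9 and 28.4 CPM in the autograft, 37.5 to 61 CPM in aortic and 45 to 63 CPM in pulmonary sinus. MEF2D fell by 1.0 (SE 0.18) against pulmonary sinus and by 0.84 (SE 0.18) against aortic sinus, the second call being lost in 15 of 27 alternatives.

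TEAD1 and MEF2D were called against pulmonary sinus in all 27 alternatives. PRDM6, a repressor made in smooth muscle, fell by 0.82 (SE 0.18) against pulmonary sinus, and FOXO4, a forkhead factor that in rat and mouse cells binds myocardin and represses it, by 0.60 (SE 0.14). The 9 genes thus include activators and repressors. The others called were HDAC5, MEF2C, SMARCA4, PIAS1 and YAP1 against pulmonary sinus and HDAC5 beside MEF2D against aortic sinus. That HDAC5 call against aortic sinus was lost in 21 of 27 alternatives. The count of 9 was 2 with those 2 groups fitted alone, 8 without both libraries that stand apart, 2 without autograft replicate 2 or pulmonary replicate 2 and 5 without pulmonary replicate 3. The count of 2 against aortic sinus was 5 in DESeq2 and 1 without both libraries that stand apart, and it was 0 without autograft replicate 1, autograft replicate 2, any 1 aortic library or pulmonary replicate 4, and 1 without autograft replicate 3, pulmonary replicate 2 or pulmonary replicate 3.

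KLF4 belongs to a family of zinc-finger factors, of which 13 other members were tested (KLF1, KLF14 and KLF17 were too low). KLF11, a repressor induced by TGF-beta, fell by 0.70 (SE 0.19, adjusted p = 0.0401, edgeR) against pulmonary sinus, a call lost in 10 of 27 alternatives. None rose, and none was called against aortic sinus by edgeR, where 6 had an unadjusted p under 0.05, DESeq2 called 3 and limma-voom 0. The median log2 fold change was -0.10 against pulmonary and 0.095 against aortic sinus. KLF2, the flow-responsive factor of endothelium, had 28.5, 68.8 and 32 CPM in the autograft, 20.8 to 45.4 CPM in aortic and 12.6 to 41.4 CPM in pulmonary sinus (0.88 ± 0.42, SE, against pulmonary sinus, adjusted p = 0.184). KLF5, which promotes growth of smooth muscle in mice, differed by 0.43 ± 0.37 and was not called.

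SRF also serves the growth-response genes. None of 15 such genes was called by edgeR in either autograft comparison, but their median log2 fold change was 1.13 against pulmonary and 0.91 against aortic sinus. At an unadjusted p under 0.05 there were 8 of them against pulmonary and 3 against aortic sinus, and DESeq2 called 4 and 0 where limma-voom called 0 in both. FOS had 127, 740 and 287 CPM in the autograft, 154, 273, 60 and 82.3 CPM in aortic and 70.6, 123, 133 and 36.9 CPM in pulmonary sinus (2.08 ± 0.65, SE, adjusted p = 0.0604 against pulmonary sinus, edgeR). IER2 had 24.2, 58.6 and 60.7 CPM in the autograft, 23.2 to 44.2 CPM in aortic and 17.8 to 33.4 CPM in pulmonary sinus (1.09 ± 0.34, adjusted p = 0.0588). In both genes autograft replicate 1 lay within the native range. Without autograft replicate 1, or without pulmonary replicate 1, 3 of the 15 were called against pulmonary sinus, and without both libraries that stand apart 5 were. The median differences of the contractile and the growth-response targets of SRF were of opposite sign.

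Across the 11 libraries, the 3 genes kept different company. Likeness was measured as the root mean square difference of log2 CPM, each gene centred on its own mean, among 10928 other genes of at least 5 CPM; a low value also needs a like size of swing. All libraries enter at like depth, and the values are a description. SRF ran closest to LOC101122413 (0.117), NPEPL1, SLC25A23, TGFB1I1 (0.145) and RAC3, against a spread of 0.495 in SRF itself. TGFB1I1, a focal adhesion coactivator of smooth muscle also called Hic-5, is on the contractile list, and CNN1, PDLIM7, TAGLN and ACTA2 held ranks 6, 11, 12 and 16.

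Of the 22 contractile genes, 13 were within the 109 genes nearest to SRF, which are the first 1% of ranks, and their median rank was 100. None was within the first 1% for MYOCD (median rank 1268) or KLF4 (median rank 10206). The 1% limit was chosen after the ranks were seen. Without both libraries that stand apart, 5 of the 22 were within the first 1% for SRF and the median rank was 458, and among the 8 native libraries alone 5 were and the median rank was 282. In those native libraries the median rank for MYOCD was 8159 and for KLF4 9976.

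MYOCD ran closest to DUSP8 (0.285), PTGIR, LOC105604152, NFATC1 and FILIP1L (0.379), against its own spread of 0.904. DUSP8 encodes a phosphatase of MAP kinases, PTGIR the prostacyclin receptor of smooth muscle and platelets, and NFATC1 a calcineurin-dependent transcription factor. Its nearest list gene was MEF2D, at rank 67 (0.538). KLF4 ran closest to FGR (0.231), FZD4, FMNL3, FES and RIPK3 (0.256), against its own spread of 0.722. FGR and FES encode tyrosine kinases of myeloid cells. The nearest list genes to KLF4 were CD34 at rank 31, KDR at rank 36 and PDGFRA at rank 40. Of the 8 genes on the fibroblast list 3, namely CD34, PDGFRA and MFAP5, were within the first 1% for KLF4 (median rank 592). KDR was the only 1 of 11 endothelial genes there (median rank 9657), and none of 10 macrophage genes was (median rank 2645). These ranks depended on the libraries used. Without both libraries that stand apart the median rank was 5000 for endothelial, 1506 for macrophage and 760 for fibroblast genes. Among the 8 native libraries alone it was 636, 2126 and 300. In both of these settings 1 macrophage gene, CD68, was within the first 1%.

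Markers of other cells that make KLF4 differed between the same libraries. The mean log2 CPM of 11 endothelial genes was 3.28, 6.68 and 5.72 in autograft replicates 1 to 3, 4.25 to 5.34 in aortic and 3.27 to 4.84 in pulmonary sinus, and their summed level was 153 to 1785 CPM, 278 to 674 CPM and 146 to 466 CPM. Of those 11 genes 2 rose against pulmonary sinus, while 6.05% of all genes were called higher (NOS3 and TEK; 5 rose in DESeq2, 0 in limma-voom with or without the animal block, 8 without autograft replicate 1, 9 without pulmonary replicate 1, 10 without both, and 0 without autograft replicate 2, pulmonary replicate 2, pulmonary replicate 3 or pulmonary replicate 4). Against aortic sinus edgeR called 0, with 4 at an unadjusted p under 0.05 and 1 called by DESeq2; without both libraries that stand apart 7 were called. Autograft replicate 1, with 41.9 CPM of KLF4, had an endothelial mean of 3.28. Its macrophage mean of 6.29 and fibroblast mean of 9.87 were the highest of the 11 libraries.

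The mean log2 CPM of 11 macrophage genes was 6.29, 5.94 and 3.93 in autograft replicates 1 to 3, 3.19 to 4.72 in aortic and 2.28 to 4.42 in pulmonary sinus, with summed levels of 218 to 1416 CPM, 158 to 481 CPM and 79.1 to 364 CPM. Of these, 5 rose against pulmonary sinus, while 6.05% of all genes were called higher. The count lay between 0 without autograft replicate 2 and 10 without autograft replicate 3, and was 4 in limma-voom, 3 there with the animal as a random block and 3 without both libraries that stand apart, and edgeR called 0 against aortic sinus, where 6 had an unadjusted p under 0.05 and DESeq2 called 3. Pulmonary replicate 2, the library with the least KLF4, was also the lowest in the macrophage mean (2.28). It was likewise the lowest in the means of fibroblast (7.65), adipocyte (0.88) and T-cell genes (-1.58), but not in the endothelial mean (3.35). The 8 fibroblast genes summed to 9533 to 12950 CPM in the autograft, 5033 to 6411 CPM in aortic and 2380 to 8228 CPM in pulmonary sinus, and 1 of them, DCN, rose in both comparisons (lost against aortic sinus in limma-voom with or without the animal block, in both comparisons in FPKM, against pulmonary sinus without pulmonary replicate 3, and against aortic sinus without any 1 aortic or autograft library, pulmonary replicate 3 or pulmonary replicate 4). No marker of these 3 lists with a row was at 0 in a whole group, and their part in the KLF4 difference was not tested.

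**Figure D4:**
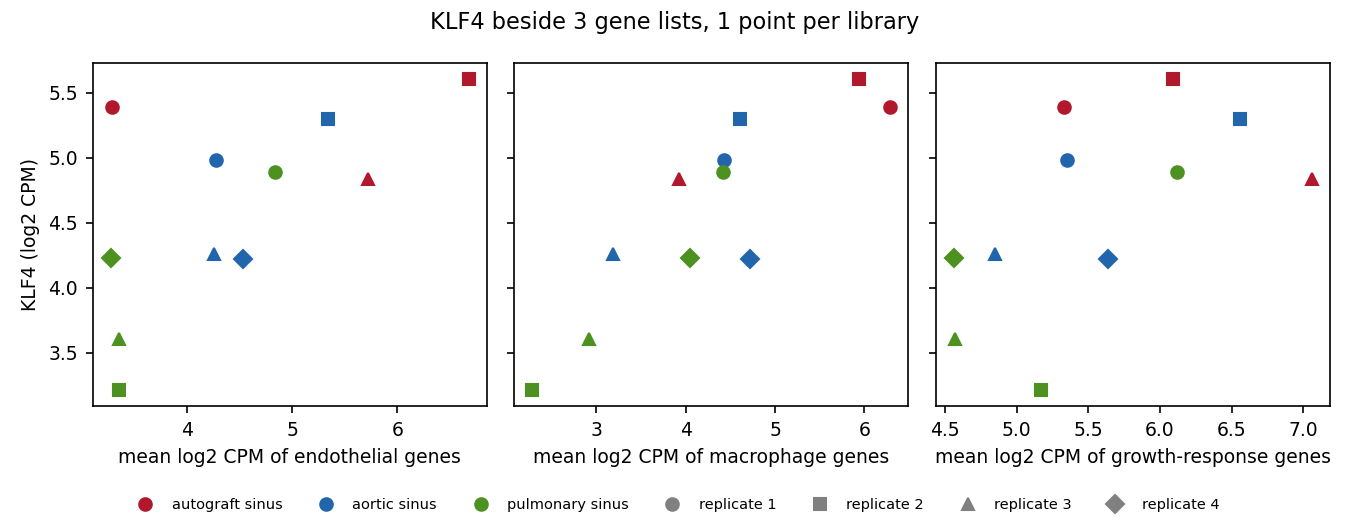
KLF4 in log2 CPM against the mean log2 CPM of endothelial, macrophage and growth-response genes, 1 point per library, with colour for the group and symbol for the replicate. Autograft replicate 1 has high KLF4 with a low endothelial mean of 3.28 and the highest macrophage mean, 6.29. Pulmonary replicate 2 is lowest in KLF4 and in the macrophage mean, and also in the fibroblast mean, which is not drawn here.

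Myocardin is also a cardiac gene, and the sinus adjoins heart muscle. The 12 cardiac genes with a row summed to 436 to 1410 CPM in the autograft, 345 to 2793 CPM in aortic and 584 to 2320 CPM in pulmonary sinus, which overlapped. NPPA was 0 in all pulmonary libraries and at most 0.25 CPM elsewhere, and MYL2 was at most 1.36 CPM except in aortic replicate 2, with 20.7 CPM. MYH7, 1 of 11 cardiac genes tested, fell against pulmonary sinus, a call lost in limma-voom with or without the animal block and without any 1 autograft library, pulmonary replicate 2 or pulmonary replicate 3. Against aortic sinus edgeR called 0, with 3 at an unadjusted p under 0.05 and 2 called by DESeq2. MYOCD in aortic replicate 2, at 339 CPM, was the highest of the aortic libraries (298, 261 and 256 CPM in aortic replicates 1, 3 and 4) and lay within the pulmonary range. The part of cardiac muscle in the MYOCD level was not tested. All 4 defining smooth muscle markers, ACTA2, MYH11, TAGLN and CNN1, were abundant in all 11 libraries.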

How the data were processed

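Total RNA was extracted with TRIzol and made into TruSeq libraries, per the labels' protocols. The authors deposited raw counts per gene for each of 2 runs, and FPKM values per run. Per the submitters' processing notes, featureCounts 1.5.3 was among the tools, as were STAR 2.5.2b, Bowtie2 2.3.3.1 and cutadapt. Genome build, annotation and strand setting: not given in the sources used here. The FPKM values deposited by the authors appear equalised between libraries: ACTA2 has 1 value in all 11.

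The counts of both runs were summed per library. edgeR 4.0.16 (TMM, filterByExpr, quasi-likelihood test) was fitted to all 3 groups together, with Benjamini-Hochberg adjustment over 14979 genes and calls at an adjusted p under 0.05. A row without a gene name, at most 0.000522% of counts, was left out. CPM are TMM-scaled, and log2 CPM use a prior count of 2. Ratios of counts were tested by exact permutation over libraries, without use of the pairing by animal. The fit was checked on simulated counts. Libraries held 17380599 to 20741334 counts; errors given are between animals, since every library of a group came from another sheep.

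The 3 genes and all lists were chosen with earlier results of these data known. Named in the text were the 3 genes, the SRF cofactors, 8 contractile genes, up to 4 called genes of smallest p per list (up to 2 where none was called) and the 5 nearest profiles; other names were added after their values were seen. Alternatives were RLE or total-count scaling, other filters, DESeq2 1.42.0, limma-voom (limma 3.58.1), 2 groups only, single runs, log2(FPKM + 1) and log2(FPKM + 0.1) in limma, each library left out, animal D3 left out, both libraries that stand apart left out (added for ratios after the data were seen), and animal blocks.

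Native pulmonary and aortic libraries pair by animal, from the labels. Deviations from the group means of all genes correlated at -0.18 (D3), -0.135 (D4), 0.433 (D5) and 0.451 (D6) between an animal's tissues. Across animals, aortic D4 with pulmonary D3 gave 0.396 and aortic D3 with pulmonary D4 gave 0.261. All 3 symbols are protein-coding in RefSeq's ARS-UI_Ramb_v3.0 table, with 0 overlapping genes each.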

Additional observations from a re-analysis of the deposited data

How the results depend on the processing

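MYOCD kept its call and direction in both autograft comparisons under all 27 alternatives. SRF against pulmonary sinus, not called at -0.87, was called with total counts without TMM (-0.89), DESeq2 (-0.87), without animal D3 (-0.99) and without both libraries that stand apart (-0.77), and ranged from -1.03 to -0.64 when each library was left out. KLF4 against pulmonary sinus was called with DESeq2 (1.20), limma-voom (1.31), without animal D3 (1.58) and without both libraries that stand apart (1.52), and ranged from 0.99 to 1.56 when each library was left out. With the animal as a random block KLF4 was 1.31, at an adjusted p of 0.04999; blocks changed no other call of the 3 genes. MYOCD between aortic and pulmonary sinus ranged from -0.055 to 0.18 when each library was left out and changed sign without aortic replicate 2 (-0.05), pulmonary replicate 3 (-0.055) or pulmonary replicate 4 (-0.041). Genes called against pulmonary sinus numbered 1699, or 2997 with DESeq2, 479 with the 2 groups only and 452 to 2753 when each library was left out. Against aortic sinus they numbered 356, or 1469 with DESeq2, 110 without animal D3 and 25 to 576 when each library was left out.

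Signs also turned for DES in all FPKM settings (0.25 in both comparisons), for MKL1 against aortic sinus in run 1 alone (0.025) or FPKM run 1 (0.13), and without both libraries that stand apart for ELK4 (-0.028), MYLK (0.057) and DES (0.13) against aortic sinus. When each library was left out, MKL2 against pulmonary sinus ranged from -0.083 to 0.26, and against aortic sinus ELK1 from -0.0072 to 0.14, ELK4 from -0.014 to 0.18, MYLK from -0.40 to 0.074 and DES from -0.51 to 0.14. ACTA2, constant in FPKM, gave no value there. The causes were not tested. With 3 autograft sheep, SRF and KLF4 lay near the threshold, and both were called against pulmonary sinus without pulmonary replicate 1 (-1.01 and 1.56). Among 10 sets of values over 4 native libraries screened, none of the member values was an outlier. That screen took groups of 4 only, so the 3 autograft libraries were not screened.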

Other observations

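Of 14 genes linked to modulated smooth muscle, cells that have left the contractile state, 6 rose against pulmonary sinus and none fell (median log2 fold change 1.38, where 6.05% of all genes were called higher), and 3 rose against aortic sinus (median 1.14, 0.948% of all genes). TCF21, a factor of fibroblast-like smooth muscle cells in mice, had 35.5, 36.6 and 45.7 CPM in the autograft, 22.9, 6.15, 4.3 and 19.9 CPM in aortic sinus and 10.2, 5.42, 7.35 and 6.8 CPM in pulmonary sinus, without overlap. Genes whose autograft libraries all lay above the others made up 10.9% of those tested against pulmonary sinus and 9.77% against aortic sinus. TCF21 was called by edgeR against pulmonary sinus but not against aortic sinus. MGP, an inhibitor of calcification, rose by 2.16 ± 0.34 on the log2 scale against pulmonary and 1.81 ± 0.34 against aortic sinus. IGFBP2, which binds insulin-like growth factors, rose by 3.40 ± 0.57 and 2.52 ± 0.55 (SE, edgeR). Both MGP calls were lost in all 4 FPKM settings, where the values were at most 1.10 and 0.87. The deposited FPKM appear equalised between libraries, and the part of this in the lower MGP values was not tested. The IGFBP2 call against aortic sinus was lost in 17 of 27 alternatives, among them limma-voom with the animal as a random block (2.37, adjusted p = 0.0503), where limma-voom without it gave 2.36 (adjusted p = 0.048). The first count was 7 without both libraries that stand apart, 2 without pulmonary replicate 3 and 3 without pulmonary replicate 2. The second was 6 in DESeq2, 1 without both libraries, 0 in FPKM, 0 without autograft replicate 1, autograft replicate 2, or aortic replicate 1, 2 or 3, and 1 without aortic replicate 4 or pulmonary replicate 3. Fibroblasts also make genes of this list, and DCN and LUM are on both lists.

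T-cell genes, of which 5 of 7 rose against pulmonary sinus (6.05% of all genes) and 2 against aortic sinus (0.948% of all genes), summed to 24.5 to 28.2 CPM in the autograft, 4.88 to 8.2 CPM in aortic and 2.11 to 7.01 CPM in pulmonary sinus. The 2 calls against aortic sinus were lost without any 1 autograft or aortic library, and DESeq2 made 5 and limma-voom 4.

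Reads of MYOCD per read of a contractile gene were set side by side after the data were seen. For every read of MYH11 there were 0.0187, 0.0107 and 0.00536 reads of MYOCD in autograft replicates 1 to 3, 0.0132 to 0.0267 in aortic and 0.0107 to 0.0255 in pulmonary sinus. For every read of ACTA2 there were 0.0126, 0.00502 and 0.00354 in the autograft, 0.0126 to 0.021 in aortic and 0.0109 to 0.0255 in pulmonary sinus, so that autograft replicates 2 and 3 lay below all native libraries and autograft replicate 1 did not.

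Adipocyte genes (6 tested) gave 1 call, PLIN4, lower against pulmonary sinus, with a median log2 fold change of 2.56 over the list, while 5.29% of all genes were called lower. That call was lost without autograft replicate 2, pulmonary replicate 2 or pulmonary replicate 3. None of the 6 was called higher, but 1 was in DESeq2, 2 were without pulmonary replicate 1 and 5 without both libraries that stand apart. Against aortic sinus edgeR called 0 (1 at an unadjusted p under 0.05, 1 called by DESeq2; median 0.61). The 6 Schwann cell genes gave 0 edgeR calls in both autograft comparisons, with 2 at an unadjusted p under 0.05 and 1 called by DESeq2 in each, and medians of -0.44 against pulmonary and -1.16 against aortic sinus.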
